A study of Mus musculus with 6 samples.

Results

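The genes described are the potassium, sodium and calcium channel subunits of the mouse heart. They are all genes whose symbol begins with Kcn, Scn or Cacn followed by a letter or digit and whose level, averaged over 6 heart libraries, was at least 0.5 FPKM. FPKM counts fragments per kilobase, scaled by the mapped fragments of a library, and is a level per transcript length, so genes can be compared with each other on it. Of 139 such symbols with a value in the files, 39 reached that level, and 33728 genes had a value in all. The level was the measure that chose the genes, so the fact that they are expressed is a description and not a result.

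The hearts came from mice aged 32 weeks, and their messenger RNA was read by sequencing. Libraries 1, 2 and 3 are labelled ApoE-/-, littermates that lack apolipoprotein E and served as controls, and libraries 4, 5 and 6 are labelled ApoE-/- Timp3-/-, below the double mutants. All 6 mice therefore carried the ApoE-/- genotype, and the loss of Timp3, which encodes a secreted inhibitor of metalloproteinases, is the difference the labels give. The labels give no more on either allele, on sex, or on which parts of the heart were taken, and only the word littermates ties the samples to each other, so a p-value here speaks of the spread among these 6 libraries.

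Voltage-gated sodium channels start the action potential of a heart muscle cell, calcium channels hold its plateau and trigger contraction, and several kinds of potassium channel bring the membrane back to rest. Each channel is built around a pore-forming alpha subunit, and auxiliary subunits set how many channels reach the membrane and how they open and close. Atrial and ventricular muscle use different sets: the acetylcholine-gated potassium channel made of Kcnj3 and Kcnj5 is a mark of atrial muscle and of the pacemaker.

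Depth, judged from coverage times transcript length, lay between 654 and 1339 aligned megabases per library. Timp3 was lower in the double mutants without overlap but far from 0: it was 52.1, 38.0 and 36.3 FPKM in libraries 1, 2 and 3 and 20.2, 28.0 and 29.6 in libraries 4, 5 and 6 (log2 difference -0.60, limma adjusted p = 0.316). The labels do not say which part of Timp3 is missing, so this level neither checks nor contradicts them. The markers of heart muscle cells were high throughout, with Actc1, cardiac alpha-actin, between 3850 and 5890 FPKM. The libraries differed in other content. The summed scaled level of 6 atrial markers was 1480, 810 and 124 in the controls and 175, 995 and 1470 in the double mutants. In library 2 most of that sum came from 1 marker, Nppa, at 802 FPKM, while Myl7 was at 2.09. Library 1 also held brown fat RNA (Ucp1 at 31.6 FPKM, with at most 0.0398 elsewhere), and library 4 held red cell RNA (Hba-a1 at 2920 FPKM, with at most 289 elsewhere).

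Kcnj3, Kcnj5 and Cacna2d2 are shown by their promoters. Libraries 1, 5 and 6 were the 3 highest for each of them, as for the atrial marker Myl7, described further on. Scn7a and, on deposited values only, Cacna2d1 had the same libraries highest, and their promoters are not shown. The sequences are RefSeq's, build GRCm38.p6, 250 bases before to 30 bases after the gene's start, at chr2:55435720-55435999 on the plus strand, chr9:32344315-32344594 on the minus strand and chr9:107399630-107399909 on the plus strand. Capitals mark the letters GGGCGG, the core of a GC box, searched on both strands.
Kcnj3: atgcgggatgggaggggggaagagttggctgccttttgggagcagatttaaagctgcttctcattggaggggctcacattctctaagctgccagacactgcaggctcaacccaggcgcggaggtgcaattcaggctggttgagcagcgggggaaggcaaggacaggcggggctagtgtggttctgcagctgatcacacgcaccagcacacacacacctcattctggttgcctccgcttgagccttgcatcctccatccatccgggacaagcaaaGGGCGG
Kcnj5: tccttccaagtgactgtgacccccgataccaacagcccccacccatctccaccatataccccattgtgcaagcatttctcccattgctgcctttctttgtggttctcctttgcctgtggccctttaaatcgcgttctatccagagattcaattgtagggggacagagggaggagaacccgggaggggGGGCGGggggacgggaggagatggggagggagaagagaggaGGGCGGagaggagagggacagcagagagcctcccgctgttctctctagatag
Cacna2d2: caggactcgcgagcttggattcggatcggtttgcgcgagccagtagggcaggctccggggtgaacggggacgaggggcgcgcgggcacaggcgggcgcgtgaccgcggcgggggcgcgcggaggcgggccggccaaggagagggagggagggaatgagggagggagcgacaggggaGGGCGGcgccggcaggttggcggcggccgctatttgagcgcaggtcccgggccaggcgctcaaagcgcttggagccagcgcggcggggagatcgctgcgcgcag

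The Kcnj5 window held 2 matches and the others 1 each, and their GC content was 58.9% for Kcnj3, 57.5% for Kcnj5 and 75.0% for Cacna2d2. The Kcnj3 match stands at the very end of its window, after the gene's start. Those of Kcnj5 and Cacna2d2 stand before the start. RefSeq promoters were matched by symbol for 25 of the 39 channel genes, as 33 windows. GGGCGG stood in 17 of the 33 (51.5%), beside 34.7% of all 32851 promoters of that length. The letters TATAAA, core of the box of that name, stood in 0 of the 33, beside 13.1% of all promoters. The letters AGATAA, which GATA factors read, stood in 2 of the 33, beside 10.7%. The motifs do not overlap each other. These are matches of letters and show no binding.

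Among the 39 genes 8 had a mean of at least 10 FPKM, 25 lay between 1 and 10, and 6 were under 1. The median was 4.17 FPKM. Kcnk3 was the highest at 38.9 and Cacna1a the lowest at 0.509. Families were covered unequally: 10 of 40 voltage-gated potassium alpha subunit symbols reached the level, 5 of 14 inward rectifiers, 4 of 12 potassium auxiliary subunits, 3 of 10 sodium alpha subunits, 2 of 13 2-pore potassium channels and none of 3 epithelial sodium channel subunits. Just above the level stood Cacna1a and Cacnb3 (means 0.509 and 0.600 FPKM). Just below it stood Scn3b, a sodium channel beta subunit, and Kcna4, a transient outward potassium channel, each with a mean of 0.418. Scn3b was 0.830, 0.506 and 0.474 FPKM in the controls and 0.205, 0.246 and 0.243 in the double mutants. Kcna4 was 0.368, 0.256 and 0.220 in the controls and 0.493, 0.453 and 0.715 in the double mutants. On these deposited values the 2 genotypes were apart for both genes, in opposite directions, at levels too low to enter the main test. With no filter on low values, 13.84% of all genes did not overlap on scaled values.

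**Figure D1:**
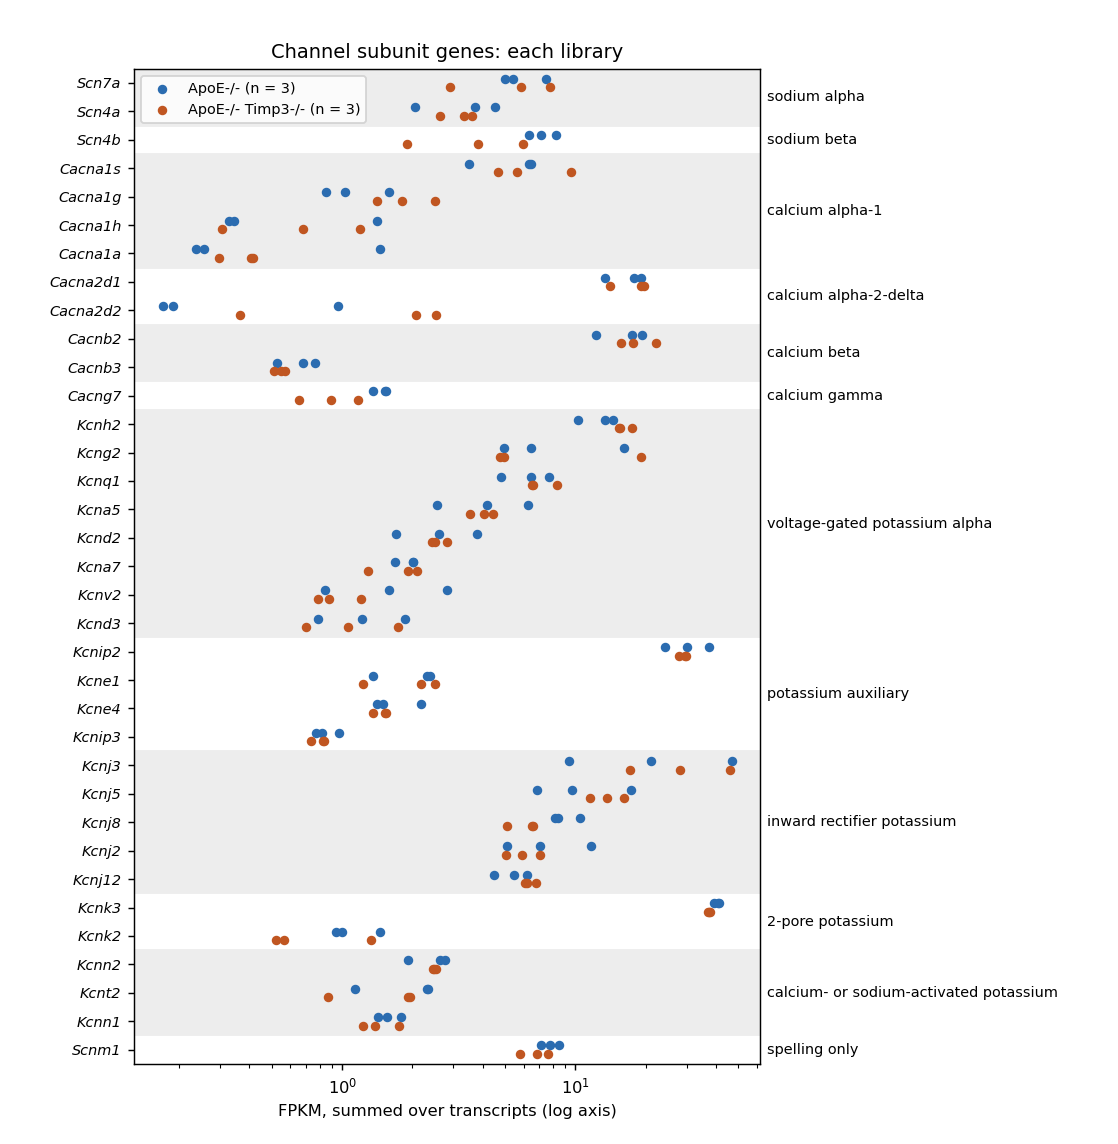
Each point is the deposited level of a channel subunit gene in 1 library, for 35 of the 39 genes, in FPKM on a log axis, blue for the 3 ApoE-/- and orange for the 3 ApoE-/- Timp3-/- libraries, with genes grouped by family. Kcnk3, Kcnip2 and Kcnj3 lie at the right, and for most genes the colours are interleaved.

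The question the design asks of these genes is whether the loss of Timp3 went with a change in their messenger RNA. In the double mutants Kcnh2, Cacna1g and Kcnj12 were higher without overlap, Scn4b, Kcnj8 and Cacng7 were lower without overlap, and Kcnk3, Kcnip2 and Kcnj3, all at high levels, overlapped. None of these differences passed the test over all genes. With limma on log2(scaled FPKM + 1), 0 of the 39 passed an adjusted p of 0.05. Over all 12839 genes tested, 8 passed (0.0623%), 5 higher (0.0389%) and 3 lower (0.0234%). At an unadjusted p under 0.05 there were 6 of 39 (15.4%), 3 higher and 3 lower in the double mutants, beside 11.3% of all genes (6.23% higher and 5.05% lower). The genotypes did not overlap in the same 6 genes, beside 18.4% of all genes (9.14% higher and 9.31% lower). Neither share stands far from its background. Leaving out library 5 left 1 gene, Cacna1g, at an unadjusted p under 0.05, beside 7.82% of all genes. Without library 3 there were 2 (beside 7.66%), and without library 2 there were 3 (beside 10.1%). The log2 differences were above 0 for 19 genes (48.7%, beside 47.9% of all genes) and below 0 for 20 (51.3%, beside 52.1%), with a median of -0.0049, beside -0.012 for all genes. That split depends on the scaling: with every library scaled to the same total, which moves the median of all genes to -0.15, it was 11 above and 28 below, and 23 of the 39 were then above that median. Under that scaling 7 genes did not overlap, all lower in the double mutants, beside 24.8% of all genes, so the 3 higher ones overlapped. On the deposited values without further scaling, where the median of all genes was -0.069, it was 13 and 26, and 21 of the 39 were above that median.

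The spread between libraries of a genotype was wider for these genes than the usual gene's. Their median standard deviation within a genotype was 0.294 on the log2 scale, beside 0.199 over all genes, while their median absolute difference between genotypes was 0.139, beside 0.155. The highest library exceeded the lowest by a median of 2.23-fold, from 1.12-fold for Kcnk3 to 14.9-fold for Cacna2d2.

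**Figure D2:**
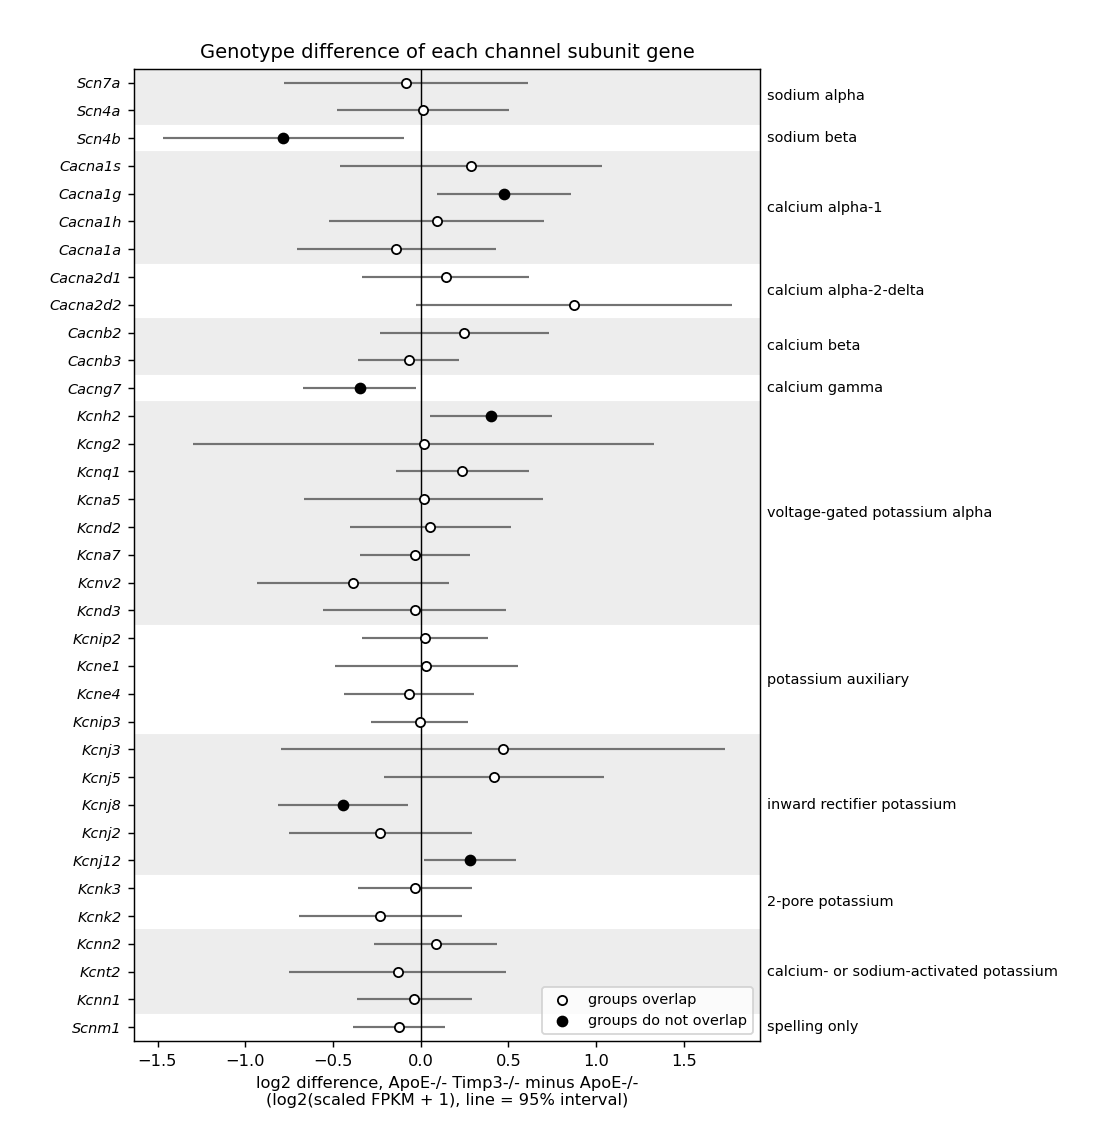
Points are log2 differences of the double mutants minus the controls for 35 of the 39 channel genes, on log2(scaled FPKM + 1), with 95% limma intervals as lines. Filled points are the 6 genes whose genotypes did not overlap: Cacna1g, Kcnh2 and Kcnj12 to the right of 0 and Scn4b, Kcnj8 and Cacng7 to the left.

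Among the sodium alpha subunits, Scn7a, a channel related to the voltage-gated ones that senses sodium rather than voltage, was 7.47, 5.39 and 4.99 FPKM in the controls and 2.90, 5.86 and 7.80 in the double mutants. Scn4a, the sodium channel of skeletal muscle, was 4.50, 2.05 and 3.72 against 3.59, 2.64 and 3.32. Both overlapped between genotypes (log2 differences -0.09 and 0.01), and each moved to the other side of 0 under other settings given in the closing section. Scaled levels of 4 skeletal muscle markers summed to between 3.42 and 6.61, with fast muscle Actn3 at 0.0948 to 0.283 FPKM.

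Sodium channel beta subunits sit beside the pore and tie it to neighbouring cells and the cytoskeleton. Scn4b (chromosome 9, 44946520 to 44962235 in NCBIM37, the build of all coordinates in the files) was 7.09, 6.35 and 8.29 FPKM in the controls and 3.80, 1.90 and 5.95 in the double mutants. All 3 double mutants lay below all controls, library 5 lowest. The scaled means were 7.12 ± 1.62 and 3.90 ± 1.89 (SD, n = 3 each), a log2 difference of -0.78 ± 0.29 (SE), the most negative of the 39, and the limma adjusted p was 0.402. The whole level came from reference transcripts. Without library 5 the difference was -0.49, and without library 6 it was -1.06.

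Of the 4 calcium channel pores described, Cacna1s, the L-type pore of skeletal muscle, was the highest, at 3.51, 6.43 and 6.34 FPKM in the controls and 9.56, 5.62 and 4.66 in the double mutants. Library 4 stood highest and library 1 lowest, so the log2 difference of 0.29 became -0.26 when both were left out. Library 4 was also the highest in the skeletal muscle markers above, whose part in this was not tested. The level lay on transcripts of unlike length. In library 4, 3.65 and 3.03 FPKM lay on reference transcripts of 876 and 1001 nt. Libraries 1 and 6 held theirs on assembled transcripts of 4049 and 4047 nt. With a fixed length per gene, an alternative added after seeing the data, the log2 difference was 0.29 (limma adjusted p = 0.419). Its unadjusted p was under 0.05.

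The T-type pores Cacna1g and Cacna1h open at low voltages and are used by pacemaker and conduction cells and by the young heart. Cacna1g (chromosome 11, 94269705 to 94335414) was 1.58, 0.855 and 1.03 FPKM in the controls and 2.49, 1.41 and 1.81 in the double mutants. On deposited values library 1 lay above library 5. After scaling, the controls were 1.36, 0.848 and 1.12 and the double mutants 2.44, 1.57 and 1.79, with no overlap. The scaled means were 1.11 ± 0.254 and 1.94 ± 0.449 (SD, n = 3 each), a log2 difference of 0.47 ± 0.16 (SE) with a limma adjusted p of 0.368. Cacna1h was 1.41, 0.328 and 0.343 against 0.678, 0.306 and 1.19 FPKM. It was high in libraries 1 and 6 and overlapped between genotypes, as did Cacna1a, the pore of the P/Q-type channel of nerve endings, whose 1.45 FPKM in library 1 compares with 0.236 to 0.415 in the others.

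The auxiliary calcium channel subunits carry channels to the membrane. Cacna2d1, the main cardiac alpha-2-delta subunit, was 19.1, 13.4 and 17.7 FPKM against 14.1, 19.6 and 19.2, and Cacnb2, the main cardiac beta subunit, was 17.5, 12.3 and 19.3 against 17.6, 15.7 and 22.3. Both overlapped (log2 differences 0.14 and 0.25). With reference transcripts only, which held 17.2% of its level, Cacna2d1 had a log2 difference of 1.69 (limma adjusted p = 0.540), with an unadjusted p under 0.05. Cacnb3, a beta subunit of smooth muscle and nerve, ranged from 0.512 to 0.766 FPKM with a log2 difference of -0.07. Cacng7, a gamma subunit best known for its work on glutamate receptors (chromosome 7, 3333055 to 3367810), was 1.54, 1.36 and 1.52 against 1.17, 0.650 and 0.893. All its double mutants lay below all controls, with scaled means of 1.44 ± 0.184 and 0.917 ± 0.212 (SD, n = 3 each). The log2 difference was -0.35 ± 0.14 (SE) and the limma adjusted p 0.416.

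Cacna2d2, the other alpha-2-delta subunit, spread most of all. It was 0.964, 0.188 and 0.170 FPKM in the controls and 0.366, 2.07 and 2.53 in the double mutants. Libraries 5 and 6 were highest, library 1 came next, and libraries 2, 3 and 4 were low, so the genotypes overlapped. The scaled means were 0.398 ± 0.369 and 1.72 ± 1.19 (SD, n = 3 each), and the log2 difference of 0.87 ± 0.38 (SE), the most positive of the 39, had a limma adjusted p of 0.453. When libraries 1 and 4 were left out, Cacna2d2 passed, with a log2 difference of 1.49 and a limma adjusted p of 0.046. The controls then left had 2.09 and 1.21 FPKM of Myl7, the atrial myosin light chain, and the double mutants left had 173 and 229.

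Kcnj3 and Kcnj5, the paired subunits of the acetylcholine-gated channel, had the same 3 libraries highest. On deposited values library 1 was at the top and not, as in Cacna2d2, the lowest of the 3. After scaling, library 1 was at 40.1 for Kcnj3, below library 6 (45.5). For Kcnj5 it was at 14.9, below library 5 (15.2) and library 6 (15.9). Kcnj3 (chromosome 2, 55288381 to 55450556) was 46.8, 9.36 and 21.1 FPKM in the controls and 17.2, 28.0 and 46.0 in the double mutants. Kcnj5 (chromosome 9, 32122368 to 32151822) was 17.4, 6.83 and 9.66 against 11.5, 13.7 and 16.1. In both genes libraries 1, 5 and 6 were the 3 highest and library 2 the lowest, and each genotype held high and low libraries. Kcnj3 had scaled means of 24.1 ± 15.4 and 31.2 ± 14.3 and Kcnj5 of 10.7 ± 4.05 and 14.1 ± 2.51 (SD, n = 3 each). The log2 differences were 0.47 ± 0.54 and 0.42 ± 0.27 (SE). Neither passed at an unadjusted p (0.412 and 0.160, limma). Without library 2 the difference of Kcnj3 was -0.066, and counting only the strongest transcript that of Kcnj5 was -0.045. Without libraries 1 and 4 the differences were 1.30 for Kcnj3 and 0.81 for Kcnj5 (limma adjusted p = 0.286 and 0.235). Without library 1 alone that of Kcnj5 was 0.66 (limma adjusted p = 0.426). All 3 had an unadjusted p under 0.05.

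Of the atrial markers, Myl7, Myl4, Sln, Dkk3 and Bmp10 had the same 3 libraries highest. Myl7 was 409, 2.09 and 1.21 FPKM in the controls and 13.4, 173 and 229 in the double mutants. Bmp10, a growth factor of the right atrium, was 10.1 and 32.5 in libraries 5 and 6 and at most 0.477 elsewhere. Nppa, the atrial peptide, differed from these in library 2, where it was 802 FPKM. Their part in the levels of the channel genes was not tested, and in bulk tissue fewer cells of a type and less RNA per cell cannot be told apart. On deposited values libraries 1, 5 and 6 were the 3 highest for 5 of the 39 genes, namely Kcnj3, Kcnj5, Cacna2d2, Scn7a and Cacna2d1. That is 12.8%, beside 10.8% of all genes. On scaled values it was 4 genes (10.3%, beside 9.39%), so having these 3 libraries highest is not particular to channels. Among genes that work with channels, Fgf12, a fibroblast growth factor homologue that binds the sodium channel, had them highest too: 7.77, 0.221 and 0.0932 FPKM in the controls against 0, 1.88 and 4.52 in the double mutants, with library 4 listed at 0.

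**Figure D3:**
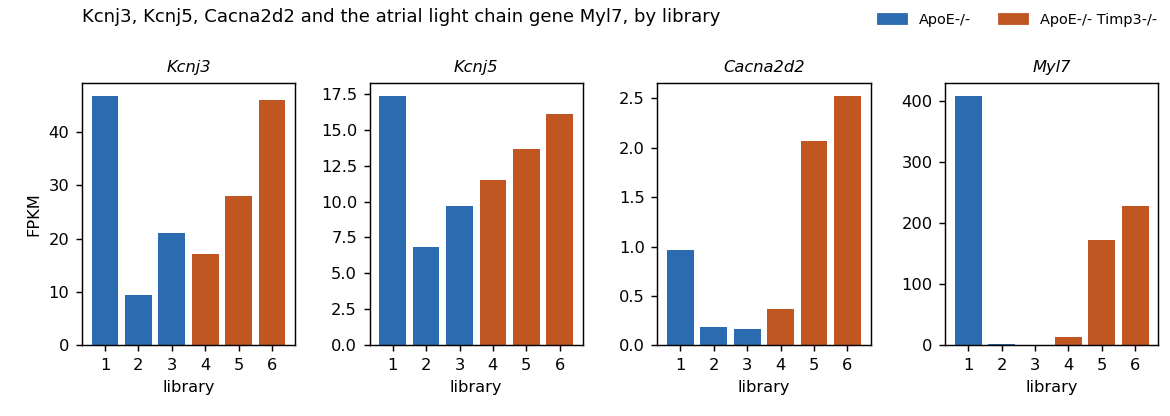
Bars are deposited FPKM in libraries 1 to 6 for Kcnj3, Kcnj5, Cacna2d2 and Myl7, each on an axis of its own that starts at 0, blue for ApoE-/- and orange for ApoE-/- Timp3-/-. Libraries 1, 5 and 6 are the 3 highest in all 4 panels, across both genotypes.

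The other inward rectifiers hold the resting potential or open when the cell runs short of ATP. Kcnj8, the pore of an ATP-sensitive channel of pericytes and smooth muscle (chromosome 6, 142513459 to 142519876), was 8.17, 10.5 and 8.45 FPKM in the controls and 6.51, 5.09 and 6.60 in the double mutants. The highest double mutant was below the lowest control. The scaled means were 8.86 ± 1.74 and 6.19 ± 0.452 (SD, n = 3 each), a log2 difference of -0.44 ± 0.16 (SE) with a limma adjusted p of 0.380. The 4 pericyte markers, none of them at 0, summed to scaled levels of 207, 331 and 331 in the controls and 193, 256 and 220 in the double mutants, and 3 of the 4 were lower at an unadjusted limma p under 0.05. The 5 endothelial markers summed to 91.3, 106 and 93.8 against 80.0, 64.8 and 72.6, again with 3 lower. The sum of 4 smooth muscle markers went the other way, at 51.3, 33.7 and 41.9 against 68.9, 51.9 and 53.2. Of these, 1 was higher and 0 lower at that p. Their part in the level of Kcnj8 was not tested. Abcc9, the regulatory partner of that channel, overlapped at 29.6, 30.2 and 37.8 against 32.6, 20.1 and 26.9 FPKM.

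Kcnj2, the main pore of the resting potassium current, was 11.7, 5.10 and 7.03 FPKM against 5.89, 5.03 and 7.06, high in library 1 and otherwise alike in range (log2 difference -0.23). Kcnj12, its partner pore (chromosome 11, 60836066 to 60884633), was 6.18, 5.46 and 4.50 against 6.77, 6.23 and 6.07. On deposited values library 1 lay just above library 6. Scaled, the controls were 5.29, 5.41 and 4.88 and the double mutants 6.63, 6.94 and 6.01, with no overlap. The scaled means were 5.19 ± 0.282 and 6.52 ± 0.477 (SD, n = 3 each), a log2 difference of 0.28 ± 0.11 (SE) with a limma adjusted p of 0.416. Reference transcripts held 2.82% of the Kcnj12 level, the lowest share of the 39, and its value rests on transcripts of 4163 to 4756 nt assembled in each library.

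Among the voltage-gated potassium alpha subunits, Kcnh2, the pore of the rapid delayed rectifier (chromosome 5, 23825407 to 23857422), was 14.4, 10.3 and 13.4 FPKM in the controls and 15.5, 15.4 and 17.5 in the double mutants. All double mutants lay above all controls. The scaled means were 12.4 ± 2.17 and 16.5 ± 1.23 (SD, n = 3 each), a log2 difference of 0.40 ± 0.15 (SE) with a limma adjusted p of 0.399. The level was shared by a reference transcript of 4221 nt and another of 3193 nt in every library, with assembled transcripts beside them in libraries 3, 4 and 5. With reference transcripts alone the difference was 0.25, and with a fixed total 0.22, and under both settings the genotypes overlapped.

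Other repolarizing channels overlapped. Kcnq1, the pore of the slow delayed rectifier, was 7.70, 4.79 and 6.42 against 8.32, 6.60 and 6.54 (log2 difference 0.24). Kcna5, the pore of an ultrarapid current, was 2.55, 6.28 and 4.19 against 3.53, 4.05 and 4.44 (0.02). In Kcna5 the controls alone spanned a wider range than all double mutants. The pores of the transient outward current were lower. Kcnd2 was 3.78, 1.70 and 2.61 against 2.43, 2.82 and 2.51, with library 2 lowest (0.05). Kcnd3 was 1.85, 0.786 and 1.22 against 0.696, 1.06 and 1.74, with library 4 lowest and library 2 next (-0.03). Kcna7 and Kcnv2 of the same family had means of 1.83 and 1.35 FPKM and log2 differences of -0.03 and -0.39.

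Kcng2, a silent subunit that alters the channels it joins, showed how the transcript set moves a level. It was 6.43, 16.1 and 4.96 FPKM in the controls and 19.2, 4.74 and 4.94 in the double mutants. Libraries 2 and 4 were high, 1 in each genotype. In these libraries 16.1 and 15.8 FPKM lay on a reference transcript of 705 nt. In libraries 1, 3, 5 and 6 the level lay on assembled transcripts of 13445 to 14966 nt, and library 4 had such a transcript too (13456 nt, 3.39 FPKM). FPKM divides by the length of the transcript, so these forms are not on equal terms. The log2 difference of 0.02 had a 95% interval from -1.30 to 1.33, the widest of the 39. With a fixed length per gene, an alternative added after seeing the data, it was 0.62.

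**Figure D4:**
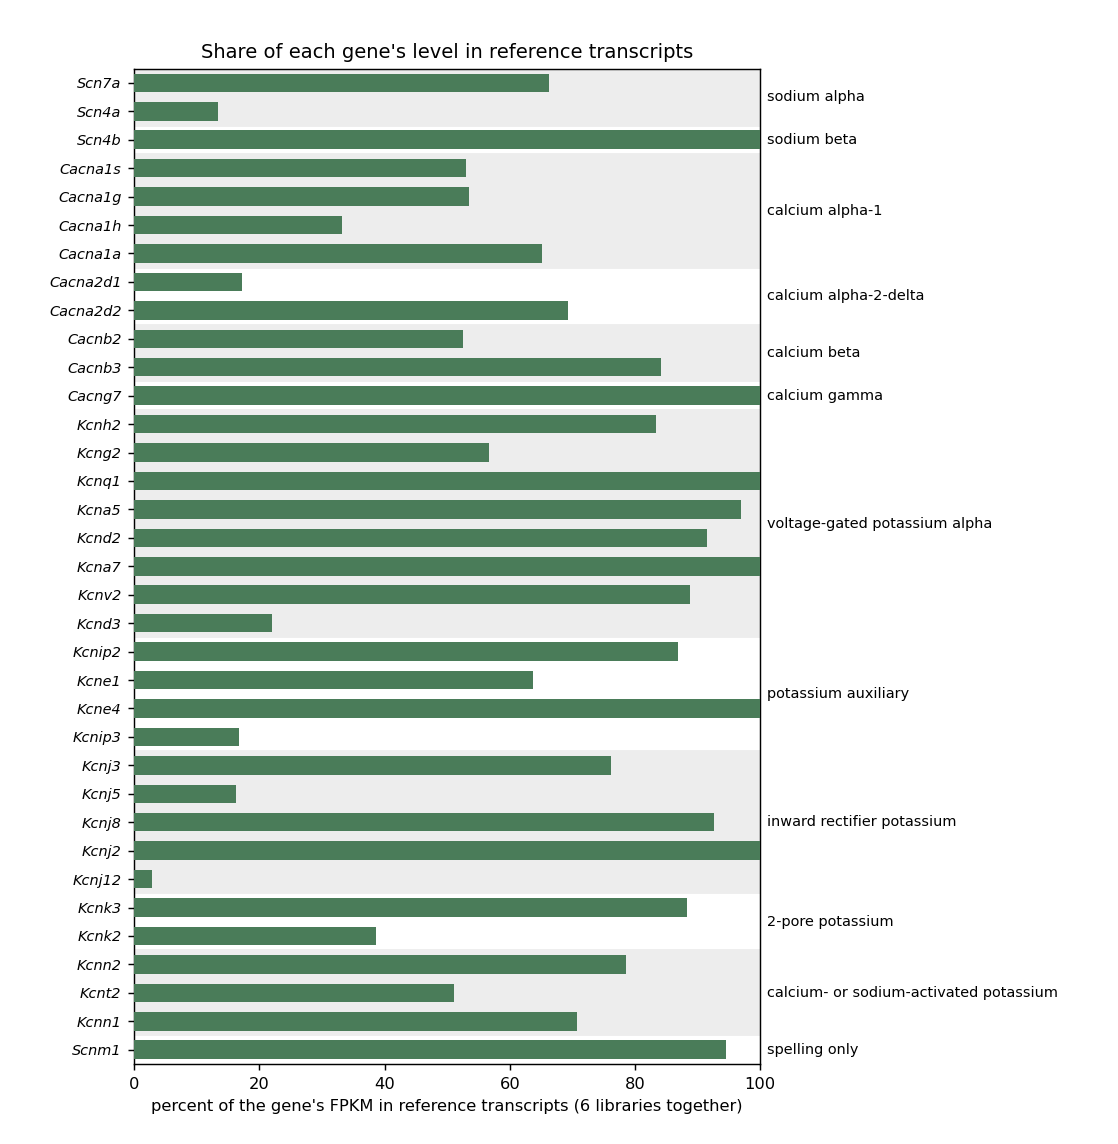
Bars give, for 35 of the 39 channel genes, the percentage of a gene's FPKM, over the 6 libraries together, that lay on reference transcripts rather than on transcripts assembled in a library. Over all 39 the share was 100% for 6 genes, such as Scn4b and Kcnq1, under 50% for 10, and lowest for Kcnj12 (2.82%).

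Auxiliary potassium channel subunits were close in both genotypes. Kcnip2, which gives the transient outward current its size in the heart, was 37.2, 24.3 and 30.1 FPKM against 29.5, 29.8 and 27.9. On deposited values the double mutants lay within the range of the controls. Scaled, library 5 was at 33.2, just above the highest control at 32.65. The log2 difference was 0.02, with a 95% interval from -0.34 to 0.39. Kcne1, the partner of Kcnq1, was 2.37, 2.30 and 1.36 against 1.23, 2.49 and 2.18, and Kcne4, which damps Kcnq1 channels, lay between 1.36 and 2.18 in the 6 libraries (log2 differences 0.03 and -0.07). Kcnip3 had a mean of 0.826 FPKM.

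Kcnk3, a 2-pore channel that carries a background potassium current, was the highest of the 39 and, on deposited values, the steadiest. It was 39.1, 41.3 and 40.8 FPKM in the controls and 37.5, 36.9 and 37.9 in the double mutants. The deposited values did not overlap. The scaled ones did, at 33.5, 40.9 and 44.2 against 36.7, 41.1 and 37.5, and the log2 difference was -0.03 with a 95% interval from -0.36 to 0.29. Kcnk2, a stretch-gated 2-pore channel, was 0.994, 1.45 and 0.943 against 1.33, 0.518 and 0.563 (log2 difference -0.23), with library 4 among the controls.

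The channels opened by calcium or sodium inside the cell were low. Kcnn2 and Kcnn1, small-conductance calcium-activated channels, had means of 2.46 and 1.52 FPKM and log2 differences of 0.08 and -0.04. Kcnt2, a sodium-activated channel, was 2.33, 1.13 and 2.30 against 0.867, 1.95 and 1.91, overlapping. Scnm1 carries the symbol by spelling only: it encodes a splicing factor, and it was 8.53, 7.77 and 7.10 against 6.82, 5.77 and 7.60 FPKM (log2 difference -0.12).

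Of 39 listed genes for channel partners and regulators that do not carry these symbols, 34 were tested. None passed in limma at an adjusted p of 0.05, and 0 had an unadjusted p under 0.05, beside 0.0623% and 11.3% of all genes. Their median log2 difference was 0.04, with 21 above 0 and 13 below. Akap7, which anchors protein kinase A at calcium channels, was the 1 gene whose genotypes did not overlap, beside 18.4% of all genes. Rrad, a small GTPase that restrains calcium channels, was 36.9, 40.0 and 32.1 FPKM in the controls and 36.1, 12.7 and 22.1 in the double mutants, with library 4 among the controls.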

How the data were processed

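For every library the authors deposited a transcript file written by Cufflinks, which gives each transcript an FPKM and a read coverage, per the file attributes. The submitters' processing notes name TopHat, Bowtie, Cufflinks and build NCBIM37. Versions, settings and the use of strand were not given in the sources used here. The files hold no read number per gene, so neither a count test nor a counting interval was possible.

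The FPKM of a gene's reference transcripts were added to those of assembled transcripts of at least 300 nt given to it (39370 of 70603). The overlap with a reference transcript had to reach 50% of the exonic bases of the shorter of the 2. A long assembled transcript could thus be given to a gene through a short reference transcript, as for Kcng2 (705 nt). A later annotation gave the symbols and, by transcript ID, the gene of 82353 of 94670 reference transcripts. The gene ID in the files placed 1603 more and exon overlap 7024, and 3690 were given to no gene. Genes with a transcript absent from a file (182) were left out, and some genes of the spelling described are not reported here. Library values are as deposited. Means and tests used FPKM divided by median-of-ratios factors of 0.897 to 1.17. The test was limma 3.58.1 (R 4.3.3), two-sided, on log2(scaled FPKM + 1), with a trend of variance on level and p-values adjusted after Benjamini and Hochberg over 12839 genes with a mean of at least 0.5 FPKM. On this scale differences of low genes come out too small. All 3 libraries of each genotype entered, with no covariate. With 3 against 3, an exact permutation test cannot go below 0.1. The fit was tested on simulated data.

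Genes were named as the 3 highest of each family, those whose genotypes did not overlap, listed subunits of cardiac currents and those nearest the level of 0.5. Kcnv2, Kcna7, Kcnip3 and the partners given with values were named after their values were seen. The members and lists were chosen with earlier results of these data known. The alternatives changed scaling, pseudocount, filter, transcripts counted or weights, and libraries were left out in turn.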

Additional observations from a re-analysis of the deposited data

How the results depend on the processing

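The count of channel genes past a limma adjusted p of 0.05 was 0 under each other scaling, pseudocount, filter, transcript choice and weighting run, and with each library left out. Without libraries 1 and 4, an alternative added after seeing the data, it was 1 of 38 (Cacna2d2), beside 0.182% of all genes. The count at an unadjusted p under 0.05 (6) was 3 with no further scaling, all lower, beside 8.06% of all genes. A fixed total gave 4, all lower (15.5%), and array weights 9 (19.6%). A fixed length per gene gave 7 (11.75%), as did genes at 0 left out (11.87%). Without libraries 1 and 4 the count was 8 of 38 (14.87%). With a library left out it was from 1 to 6, beside 7.66% to 12.5%. The count without overlap (6) was 3 of 31 with reference transcripts only, all lower, beside 16.56% of all genes. With no further scaling it was 5, 1 higher and 4 lower (14.64%). Quantile normalization gave 4 (18.37%), and the strongest transcript 8, 4 higher and 4 lower (16.65%). Without libraries 1 and 4 it was 16 of 38, where 49.9% of all genes did not overlap. With a library left out it was from 7 to 12, beside 25.52% to 32.65% of all genes, as fewer samples overlap less often. Among partner genes the count at an unadjusted p under 0.05 (0) is given here beside the share of all genes. It was 1 with no further scaling (8.06%), quantile normalization (11.4%), a fixed length per gene (11.75%) or genes at 0 left out (11.87%). It was 2 with reference transcripts only (9.14%) and with the strongest transcript (9.91%), and 3 with a fixed total (15.5%). It was 8 with array weights (19.6%) and 8 without libraries 1 and 4 (14.9%). With a library left out it was from 0 to 4 (7.66% to 12.5%). Genes tested fell to 11787 with reference transcripts only. Log2 differences of some genes, those of Kcnj3 and Kcnj5 among them, changed side, and the cause was not tested. With array weights this held for Cacna1s (-0.043), Kcnn2 (-0.037), Kcnn1 (0.022), Kcnip2 (-0.036), Scn7a (0.18), Scn4a (-0.16), Kcng2 (-0.096) and Kcnd3 (0.033). With a fixed length per gene this held for Kcnt2 (0.00094) and Scn4a (-0.087). Without libraries 1 and 4 this held for Cacna1s (-0.26), Kcnt2 (0.15), Kcnj2 (0.0064), Scn7a (0.34), Kcng2 (-0.77), Kcna5 (-0.21) and Kcnd3 (0.25). With no further scaling this held for Kcnip2 (-0.049), Kcne1 (-0.027), Scn4a (-0.044), Kcng2 (-0.046), Kcna5 (-0.037) and Kcnd2 (-0.0062). With quantile normalization this held for Kcnn1 (0.016), Kcnip2 (-0.085) and Kcnd3 (0.019). With reference transcripts only this held for Cacna1s (-0.27), Cacnb2 (-0.023), Kcnip2 (-0.026), Kcne1 (-0.063), Scn7a (0.24), Scnm1 (0.034), Kcng2 (-0.018) and Kcna5 (-0.064). With a fixed total this held for Cacna2d1 (-0.036), Kcnn2 (-0.050), Kcnip2 (-0.16), Kcne1 (-0.083), Scn4a (-0.13), Kcng2 (-0.15), Kcna5 (-0.13) and Kcnd2 (-0.084). With the strongest transcript of a gene only this held for Kcnn1 (0.18), Kcnj5 (-0.045), Kcne1 (-0.070), Scn7a (0.30), Scnm1 (0.28), Kcng2 (-0.34), Kcna5 (-0.072) and Kcnd3 (0.30). Leaving out 1 library at a time, values reached both sides of 0 for Kcnk3 (-0.15 to 0.049), Cacna1s (-0.025 to 0.50), Cacna1h (-0.089 to 0.32), Kcnn2 (-0.020 to 0.21), Kcnt2 (-0.33 to 0.11), Kcnn1 (-0.11 to 0.051), Kcnj3 (-0.066 to 0.93), Kcnip2 (-0.11 to 0.10), Kcne1 (-0.14 to 0.25), Kcne4 (-0.17 to 0.066), Scn7a (-0.32 to 0.27), Scn4a (-0.22 to 0.14), Kcng2 (-0.55 to 0.49), Kcna5 (-0.31 to 0.28), Kcnd2 (-0.14 to 0.18) and Kcnd3 (-0.20 to 0.14). No paired analysis was possible because the labels number the libraries 1 to 6 with no number shared between genotypes. With 3 libraries a genotype, no read counts and FPKM near 1 for many of these genes, small differences cannot be seen here.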
